A study of Mus musculus with 8 samples.

Results

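In lens fiber cells, 481 of the 7502 chromatin loops listed on chromosomes 1 to 19 had no lens CTCF at either anchor. A loop was chosen when both anchors, each widened by 5 kb on both sides, overlapped no CTCF peak of lens fiber cells and none of lens epithelium. The loops were therefore selected on CTCF, and the absence of peaks at their anchors is not a result. They made up 6.41% of the fiber loops (95% Wilson interval 5.88% to 6.99%), against 2441 loops with lens CTCF at 1 anchor and 4580 with lens CTCF at both anchors.

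In the loop extrusion model, cohesin reels in chromatin until it meets CTCF bound at an anchor, and many loops of mammalian cells end at a pair of CTCF sites. Other loops join promoters to enhancers or to each other, or bring together regions held by Polycomb proteins, and such loops may lack CTCF. The lens consists of an epithelium, which divides and supplies new cells, and of fiber cells, which elongate, fill with crystallins and lose their nuclei as they mature.

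Hi-C was performed on lens epithelium and lens fibers of CD-1 mice at postnatal day 0.5 and on wild type v6.5 mouse ES cells, with 2 replicates of each. Each lens replicate pooled 30 microdissected samples, and the authors merged both replicates into 1 list of loops and 1 list of TADs (topologically associating domains) per cell type. CTCF ChIP-seq peaks came from 1 sample of each lens cell type, made from 200 pooled CD-1 lenses as the labels give it, although the labels and the methods of the study differ on the number of replicates, and no CTCF list of ES cells was used here. The lists of loops, TADs and peaks carry no RNA values, so the dissected tissues could not be checked against marker genes, and cell type and strain cannot be told apart between lens and ES cells. Because the replicates were merged, no spread between replicates could be given and no difference was tested. The intervals below are Wilson intervals for shares and order-statistic intervals for medians. They cover counting error only, and loops of a list share a map and are not replicates. The total depth of the maps cannot be read from the lists. The paper calls the totals of Hi-C contacts similar, with fiber highest and lens epithelium lowest, and contact counts below were not scaled by them. The fiber peak list held 23868 peaks and the epithelium list 16433.

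Sequences are shown first for the 3 loops without lens CTCF that joined a pair of promoters with at least 80% of bases identical, because none of the 175 loops with lens CTCF at both anchors and none of the 91 with lens CTCF at 1 anchor that had a promoter of the table at both anchors did so. Each sequence runs 5′ to 3′ on the strand of its gene, from 250 bases before to 50 bases after the start of the gene, as given by RefSeq for GRCm38.p6. Capitals mark bases that differ or have no partner in the alignment of the pair. Pate5, of a family expressed in testis and prostate, and the predicted gene Gm5916 shared 266 of 300 bases (88.7%).
Pate5 promoter, chr9:35844101-35844400, minus strand: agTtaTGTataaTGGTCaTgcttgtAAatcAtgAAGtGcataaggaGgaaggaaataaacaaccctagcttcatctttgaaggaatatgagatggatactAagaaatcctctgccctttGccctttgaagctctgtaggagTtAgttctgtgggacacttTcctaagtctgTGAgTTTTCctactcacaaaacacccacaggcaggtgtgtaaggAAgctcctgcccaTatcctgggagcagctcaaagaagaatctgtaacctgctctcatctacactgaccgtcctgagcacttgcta
Gm5916 promoter, chr9:36128730-36129029, minus strand: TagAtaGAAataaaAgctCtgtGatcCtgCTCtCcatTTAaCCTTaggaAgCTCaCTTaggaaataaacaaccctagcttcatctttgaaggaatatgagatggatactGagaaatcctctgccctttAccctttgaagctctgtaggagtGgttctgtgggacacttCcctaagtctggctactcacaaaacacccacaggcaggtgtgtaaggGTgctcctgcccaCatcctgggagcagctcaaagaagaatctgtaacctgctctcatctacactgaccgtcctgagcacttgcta
Mptx2 and Mptx1, which encode mucosal pentraxins, shared 252 of 300 bases (84.0%).
Mptx2 promoter, chr1:173277707-173278006, minus strand: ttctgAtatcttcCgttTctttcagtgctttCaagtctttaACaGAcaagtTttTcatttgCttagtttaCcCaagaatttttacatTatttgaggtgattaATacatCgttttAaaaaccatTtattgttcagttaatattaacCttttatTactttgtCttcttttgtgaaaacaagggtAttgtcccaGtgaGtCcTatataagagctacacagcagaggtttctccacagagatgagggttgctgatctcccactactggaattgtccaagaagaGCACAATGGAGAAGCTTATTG
Mptx1 promoter, chr1:174330268-174330567, plus strand: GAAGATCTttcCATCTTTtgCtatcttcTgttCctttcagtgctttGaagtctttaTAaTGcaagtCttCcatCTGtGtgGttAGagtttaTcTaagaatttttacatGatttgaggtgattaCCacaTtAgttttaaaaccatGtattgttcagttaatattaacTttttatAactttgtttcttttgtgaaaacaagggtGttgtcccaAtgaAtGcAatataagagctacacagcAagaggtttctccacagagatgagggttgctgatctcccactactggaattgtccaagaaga
Klra5 and Klra6, which encode Ly49 receptors of natural killer cells, shared 250 of 300 bases (83.3%).
Klra5 promoter, chr6:129913175-129913474, minus strand: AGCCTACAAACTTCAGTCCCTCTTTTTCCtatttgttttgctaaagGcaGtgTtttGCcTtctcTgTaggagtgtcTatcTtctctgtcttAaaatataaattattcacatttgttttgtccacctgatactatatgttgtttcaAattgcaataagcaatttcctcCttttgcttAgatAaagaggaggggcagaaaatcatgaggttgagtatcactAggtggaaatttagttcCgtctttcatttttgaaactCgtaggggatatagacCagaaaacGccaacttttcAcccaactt
Klra6 promoter, chr6:130026905-130027204, minus strand: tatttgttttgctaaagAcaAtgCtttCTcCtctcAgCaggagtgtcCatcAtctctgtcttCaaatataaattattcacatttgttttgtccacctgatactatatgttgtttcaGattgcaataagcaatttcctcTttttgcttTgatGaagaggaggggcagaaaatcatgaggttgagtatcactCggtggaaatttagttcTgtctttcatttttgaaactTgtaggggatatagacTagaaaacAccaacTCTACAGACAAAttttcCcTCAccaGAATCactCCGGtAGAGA
For contrast, Zswim6 and Smim15 had the highest observed over expected contacts among loops without lens CTCF with a promoter of the table at both anchors, apart from gene families and the pair of Pate5 and Gm5916. Their promoters shared 174 of 300 bases (58.0%) and are shown without capitals because the alignment differed throughout.
Zswim6 promoter, chr13:107890015-107890314, minus strand: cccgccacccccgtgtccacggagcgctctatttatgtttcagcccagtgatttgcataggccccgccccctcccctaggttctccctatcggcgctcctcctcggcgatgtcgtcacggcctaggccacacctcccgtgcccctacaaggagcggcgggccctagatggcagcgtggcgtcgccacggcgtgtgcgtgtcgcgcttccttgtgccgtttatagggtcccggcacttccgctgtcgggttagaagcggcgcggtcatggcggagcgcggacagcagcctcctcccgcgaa
Smim15 promoter, chr13:108044224-108044523, plus strand: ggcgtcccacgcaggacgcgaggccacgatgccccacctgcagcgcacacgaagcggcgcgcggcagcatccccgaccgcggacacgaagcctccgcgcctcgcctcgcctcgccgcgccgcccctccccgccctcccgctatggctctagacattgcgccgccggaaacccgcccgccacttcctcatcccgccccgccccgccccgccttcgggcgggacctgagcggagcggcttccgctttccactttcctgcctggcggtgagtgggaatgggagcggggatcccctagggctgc
Nrcam, which encodes a cell adhesion molecule of the immunoglobulin family, was the gene from the list of crystallins and lens fiber structural genes that reached an anchor.
Nrcam promoter, chr12:44328635-44328934, plus strand: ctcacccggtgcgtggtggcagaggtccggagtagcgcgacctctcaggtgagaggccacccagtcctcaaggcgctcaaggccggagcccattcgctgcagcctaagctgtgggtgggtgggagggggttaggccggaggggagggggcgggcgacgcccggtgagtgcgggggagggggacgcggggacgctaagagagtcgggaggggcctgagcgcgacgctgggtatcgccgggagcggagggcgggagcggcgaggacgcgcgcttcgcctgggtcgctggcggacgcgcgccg
None of the 209 promoters at these anchors held the CTCF core consensus on either strand, which allows a share of up to 1.80% (upper Wilson bound). The core stood in 17 of 1639 promoters (1.04%) at anchors of loops with lens CTCF at both anchors and in 119 of all 21263 promoters of the table (0.560%). Both sets of anchors were chosen by the absence or presence of lens CTCF peaks, so the order of these shares is not independent of the rule. A match to the consensus is a description of letters and not a binding site.

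Loops without lens CTCF were shorter in the middle of their range and longer at its upper end. Their size, taken between anchor midpoints, ran from 35 kb to 91275 kb with a median of 175 kb (150 to 205 kb) and quartiles of 100 kb and 400 kb. The median was 250 kb (250 to 275 kb) with lens CTCF at 1 anchor and 280 kb (275 to 300 kb) with lens CTCF at both anchors. In all, 113 of the 481 loops (23.5%, 19.9% to 27.5%) were shorter than 100 kb, against 565 of 4580 (12.3%, 11.4% to 13.3%) with CTCF at both anchors. At the other end, 17 loops (3.53%, 2.22% to 5.59%) were longer than 3 Mb, against 0.699% (0.495% to 0.985%) with CTCF at both anchors and 1.09% of all fiber loops. The mean size, 1165 kb against 499 kb, stood in the opposite order from the median, and was 310.0 kb without 33 loops of very high contact ratio described below. Wider anchors have more room for a peak and belong to longer loops, so sizes were also compared at equal width. The median was 105 kb against 165 kb with 5 kb anchors, 130 kb against 210 kb with 10 kb anchors and 325 kb against 450 kb with 25 kb anchors. It was lower on 19 of 19 chromosomes. The share of loops without lens CTCF itself varied little with anchor width, from 5.90% of 1220 loops with 5 kb anchors to 6.88% of 3111 with 10 kb anchors.

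**Figure D1:**
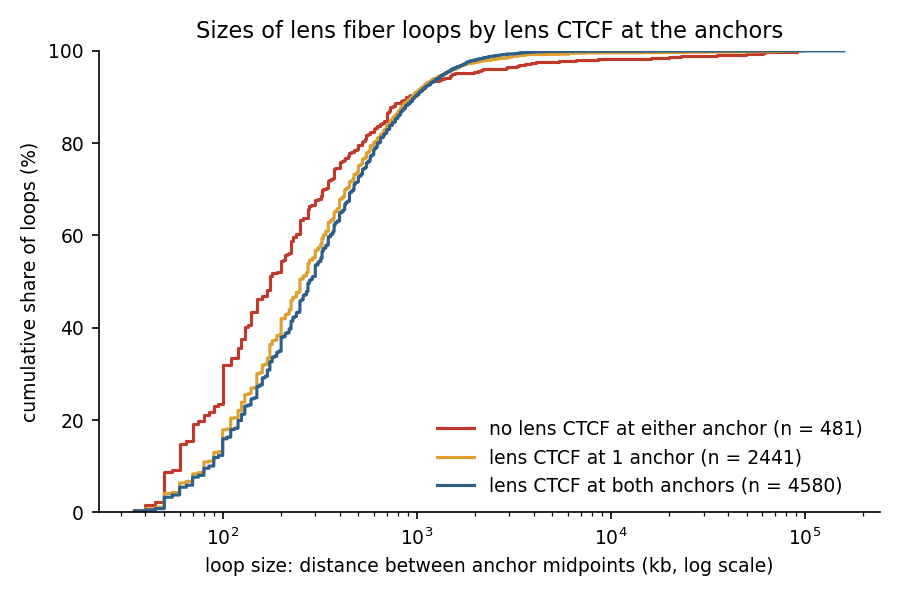
Cumulative share of lens fiber loops (vertical axis, %) by size (horizontal axis, kb on a log scale), with 1 line for each number of anchors with lens CTCF. The line of the 481 loops without lens CTCF lies to the left of the others over most of the range and ends below them above 3 Mb, with medians of 175 kb, 250 kb and 280 kb.

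**Figure D2:**
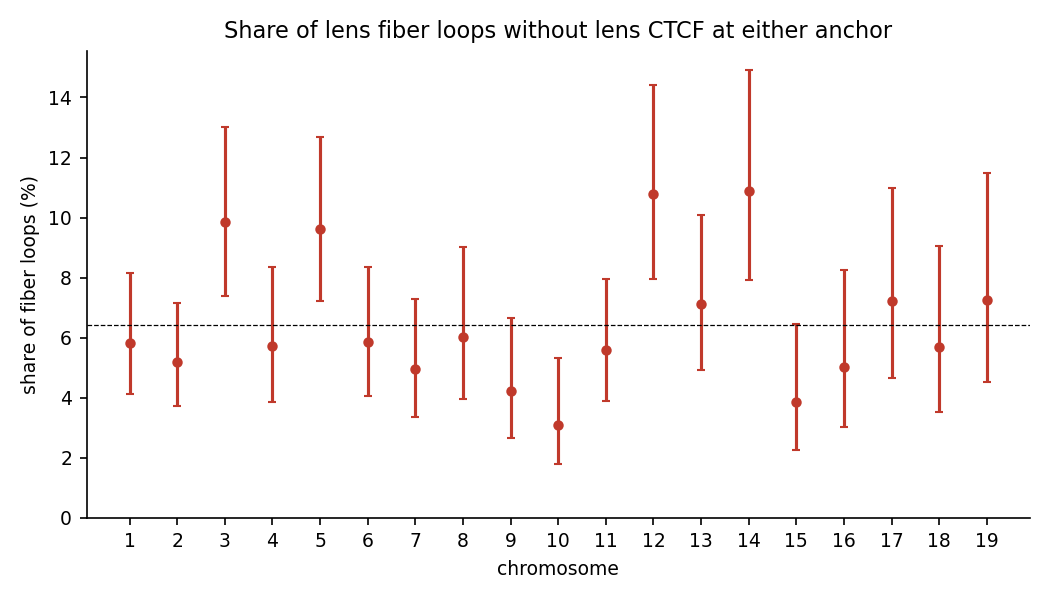
Share of fiber loops without lens CTCF at either anchor (vertical axis, %) on each chromosome, with 95% Wilson intervals and a dashed line at the share over all chromosomes, 6.41%. The share ran from 3.09% of 388 loops on chromosome 10 to 10.9% of 311 on chromosome 14, and chromosomes 3, 5 and 12 also lay above 9%.

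Fewer of these loops were found in the other lists. Presence required a loop of the other list whose midpoints differed from those of the fiber loop by at most 10 kb at each anchor. In the lens epithelium list, 211 of 481 loops were present (43.9%, 39.5% to 48.3%), against 52.4% with lens CTCF at 1 anchor, 63.1% (61.6% to 64.4%) with lens CTCF at both anchors and 58.3% of all fiber loops. In the ES cell list, 86 were present (17.9%, 14.7% to 21.6%), against 29.5% with lens CTCF at 1 anchor, 45.4% (44.0% to 46.9%) with lens CTCF at both anchors and 38.5% of all fiber loops. The same order held at each anchor width. With 5 kb anchors, 68.1% against 88.2% were in the epithelium list and 37.5% against 82.5% in the ES cell list. With 10 kb anchors the shares were 45.8% against 70.0% and 20.6% against 52.5%, and with 25 kb anchors, which fall on a coarser grid, 32.8% against 44.8% and 7.69% against 21.5%. By chromosome, the ES cell share was lower than that of loops with CTCF at both anchors on 19 of 19 chromosomes and the epithelium share on 18 of 19, chromosome 18 being the exception with 62.5% against 62.3%.

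Grouped over the 3 lists, 67 loops without lens CTCF (13.9%, 11.1% to 17.3%) were in all of them, against 36.9% with CTCF at both anchors and 30.8% of all fiber loops. Another 144 were in both lens lists and not in the ES cell list (29.9%, 26.0% to 34.2%), a share close to the 26.2% of loops with CTCF at both anchors. A further 19 were in the fiber and ES cell lists, and 251 (52.2%, 47.7% to 56.6%) were in the fiber list alone, against 28.4% with CTCF at both anchors and 34.0% of all fiber loops. Loops in the fiber list alone had lower contact ratios over all widths. HiCCUPS, the loop caller, lists for each loop the observed contacts and those expected from its surroundings, and the median of observed over expected contacts in the donut background was 2.40 (2.32 to 2.54) for the 251 fiber loops, 3.11 (2.87 to 3.43) for the 144 of both lens lists and 3.88 (3.23 to 4.22) for the 67 of all lists. Ratios fall with anchor width, and 126 of the 251 loops had 25 kb anchors, against 10 of the 67. With 5 kb anchors the ratio was 4.66 (4.04 to 5.88) for 20 loops of the fiber list alone and 4.48 (4.01 to 5.37) for 24 loops of all lists, so the order did not hold there. The part of this difference in contacts in the shares above was not tested. Loops were paired by midpoints whatever their anchor width, so ratios set against those of another list, here and below, can come from unlike widths. For the 211 loops shared with epithelium, the ratio was higher in fiber than in epithelium in 64 (30.3%), against 928 of 2888 (32.1%) with CTCF at both anchors. The median ratio was lower in fiber than in epithelium both without lens CTCF, 3.27 against 3.46, and with CTCF at both anchors, 3.17 against 3.51. For the 86 shared with ES cells it was higher in fiber in 43, against 961 of 2080 (46.2%). There the medians stood in opposite orders, at 3.78 in fiber and 3.35 in ES cells without lens CTCF, and at 3.38 and 3.56 with CTCF at both anchors.

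**Figure D3:**
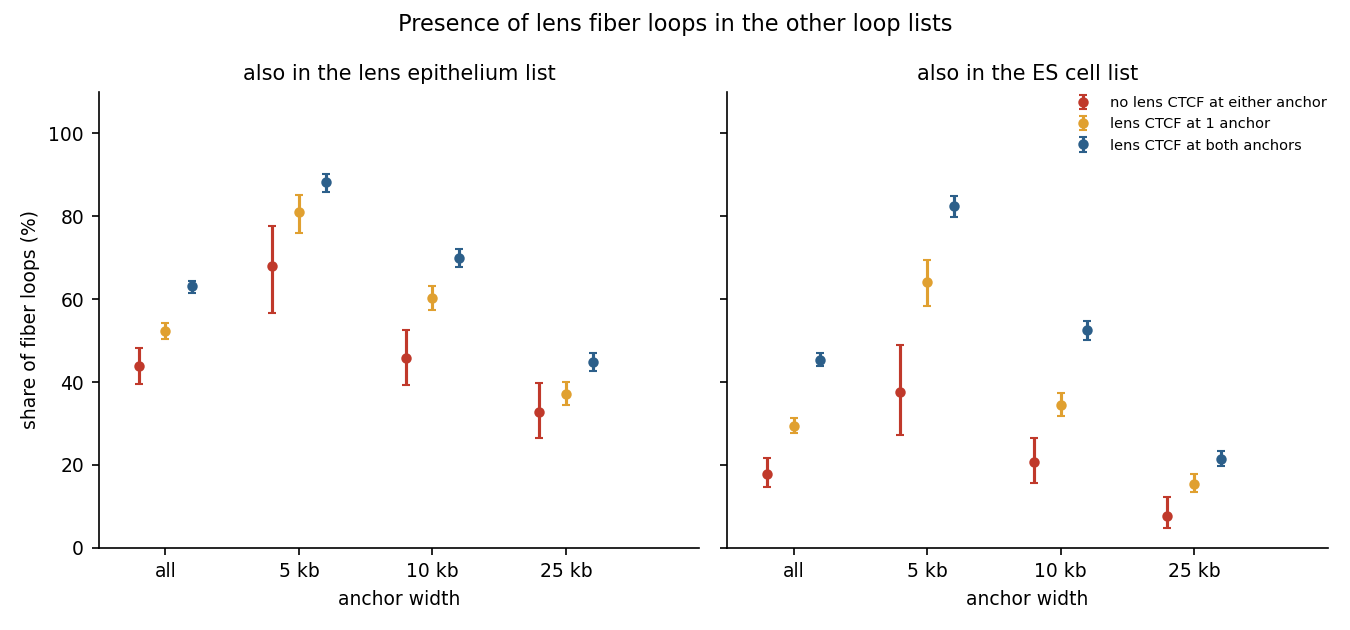
Share of fiber loops (vertical axis, %) also listed in lens epithelium (left) and in ES cells (right), over all loops and by anchor width (horizontal axis), for loops with lens CTCF at neither, 1 or both anchors. Points are shares and bars 95% Wilson intervals, and loops without lens CTCF stand lowest in every column, at 43.9% and 17.9% over all widths.

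Loops on either side of the 5 kb limit of the rule were as follows. The 75 loops just inside it, with the nearest lens peak 5 to 7 kb from an anchor, had a median size of 160 kb, and 50.7% were in the epithelium list and 21.3% in the ES cell list. The 122 loops just outside, with the nearest peak 3 to 5 kb away, had a median of 172 kb, with 54.9% and 28.7% in those lists. Over all 481 loops the nearest lens peak lay at a median of 17.8 kb from the closer anchor, and 60 loops had none within 100 kb.

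For most of these loops the contacts stood about as far above expectation as at other loops. Loops enter the list only when HiCCUPS finds more contacts than expected, so all classes were selected on this ratio. The lowest ratio of the 481 loops was 1.75. The median ratio of observed to expected contacts was 2.75 (2.60 to 2.92), against 2.91 (2.88 to 2.95) with lens CTCF at both anchors. The order changed with anchor width: the ratio was higher without lens CTCF at 5 kb anchors, 4.78 (4.36 to 5.88) against 4.45 (4.38 to 4.52), and lower at 10 kb anchors, 2.90 against 3.09, and at 25 kb anchors, 2.31 against 2.44. A small group stood apart. A ratio of at least 10 was found for 33 of the 481 loops (6.86%, 4.93% to 9.48%), against 11 of 4580 (0.240%, 0.134% to 0.430%) with CTCF at both anchors and 0.933% of all fiber loops. These 33 loops rested on 13 to 84 observed contacts with a median of 19, and 15 of them were longer than 3 Mb. Of the 33, 25 were also in the epithelium list and 7 in the ES cell list. The limit of 10 was chosen after the values were seen. Without these 33 loops, the median size of the rest was 170 kb and the shares in the epithelium and ES cell lists were 41.5% and 17.6%.

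The highest ratio belonged to a loop on chromosome 1 between chr1:34900001-34905000, 20.4 kb from Plekhb2, and chr1:70160001-70165000, within Spag16, a gene of the sperm flagellum. It held 24 contacts in the fiber map where 0.0115 were expected, a ratio of 2095, and 18 contacts at a ratio of 1556 in the epithelium list. It was not in the ES cell list. On the same chromosome, a loop of 49470 kb from the body of Cntnap5b, a neurexin-like gene, to a site 485 kb from Pla2g4a held 20 contacts in the fiber map and 20 in the epithelium map, with ratios of 809 and 1791. A loop of 19820 kb on chromosome 8 near Smim31 and Cks1brt held 14 contacts at a ratio of 781 in fiber and 17 at a ratio of 2515 in epithelium. A loop of 16160 kb on chromosome 3, 15.5 kb from Gclm, a subunit of the enzyme that starts glutathione synthesis, and 21.1 kb from Adh6b held 19 and 21 contacts at ratios of 234 and 382. All 4 of these loops were in both lens lists and not in the ES cell list, and each rested on no more than 24 contacts per map. Reads of CD-1 lenses were placed on the mm10 reference, and whether the placement of reads or differences between CD-1 and that reference have a part in the contacts of these and the other long loops was not tested.

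Other loops of this kind had different partners. The loop of 3360 kb on chromosome 9 from the body of 4930563M21Rik to a site 6.49 kb from Bbs4, a gene of the primary cilium, was in all 3 lists, with ratios of 517 in fiber, 606 in epithelium and 36.5 in ES cells. The longest loop, 91275 kb on chromosome 5 from Cnpy1 to a site 171 kb from Tbx3, a T-box transcription factor, was in the fiber and ES cell lists with 14 and 15 contacts, and not in the epithelium list. Loops of 62350 kb from Bmt2 towards Ctnna2 (882 kb away), of 60610 kb between sites 152 kb from Pkia and 67.2 kb from Iqschfp, and of 20425 kb from a site 1249 kb from Slc39a10 to the body of Erbb4, a receptor of neuregulins, were in the fiber list alone, with 15, 17 and 13 contacts. The rest of the 10 longest or 10 highest lay near Tank and Gm1322, Mrgprb1 and Ano5, 1810024B03Rik and Zfp120, Unc5d and AI429214, and Pramel21 and Pramel11. Of the 17 loops longer than 3 Mb, 11 were in the epithelium list and 4 in the ES cell list. Over all fiber loops these lists held 58.3% and 38.5%.

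**Figure D4:**
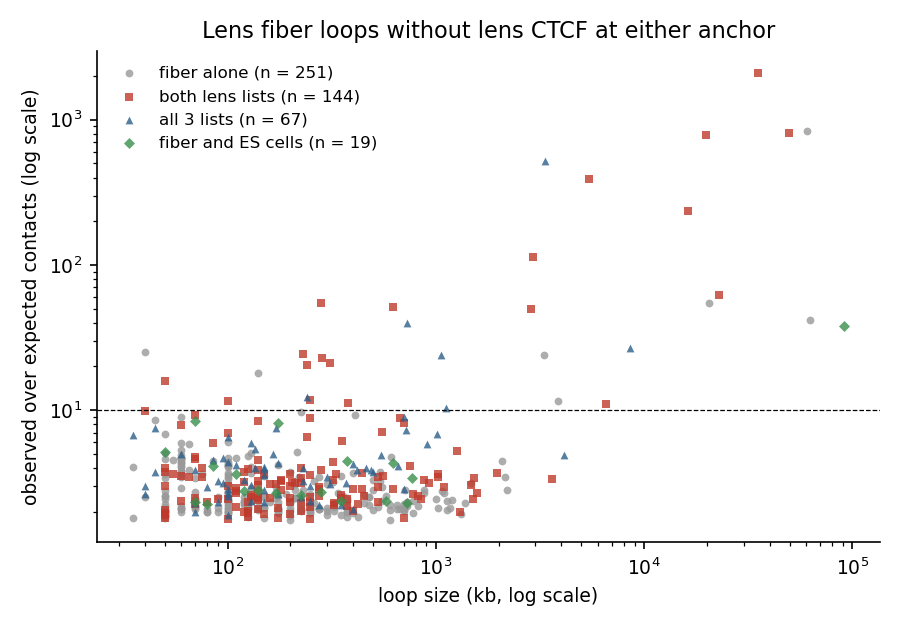
Observed over expected contacts (vertical axis, log scale) against size (horizontal axis, kb on a log scale) for each of the 481 loops without lens CTCF, with a dashed line at a ratio of 10. Colours and shapes give the lists that hold the loop: 15 of the 33 loops at or above the line are longer than 3 Mb, and 25 of the 33 are also in the epithelium list.

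Gene ends lay at the anchors of fewer of these loops, with intervals that overlapped, and more of the loops had no gene body at either anchor. At least 1 anchor held an end of a protein-coding gene, from 1 kb outside to 100 bp inside, in 232 of 481 loops (48.2%, 43.8% to 52.7%), against 52.0% (50.5% to 53.4%) with lens CTCF at both anchors and 51.7% of all fiber loops. Both anchors did in 57 loops (11.9%), against 12.0%. Gene bodies stood at neither anchor in 23.9% (20.3% to 27.9%), against 16.9%, and at both anchors in 43.5% (39.1% to 47.9%), against 38.3% (36.9% to 39.7%). In all, 320 of 20665 protein-coding genes (1.55%) had an end at an anchor without lens CTCF at either side of the loop, and 4580 genes (22.2%) had an end at an anchor of any fiber loop, so that 6.99% of the genes at fiber loops were reached by loops without lens CTCF. The 6 lists of genes are set beside that 6.99%, and with 10 to 182 genes at fiber loops each, small counts limit what they show.

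Of 25 lens transcription factor genes with an end at a fiber loop, 3 (12.0%) were reached by loops without lens CTCF. Six3, a homeobox gene of eye and forebrain development, stood at 1 end of a 440 kb loop whose other end lay nearest to Camkmt, with the nearest lens peaks 25.8 kb and 9.59 kb from the Six3 and the Camkmt anchor. That loop had 62 contacts in fiber, with ratios of 2.88 in fiber and 2.90 in epithelium, and was not in the ES cell list. Mab21l1, which is required for lens formation, was joined to Dclk1, a microtubule-associated kinase, by a 250 kb loop with ratios of 2.51 and 2.31 in both lens lists, and this was the only fiber loop at Mab21l1. The anchor at Mab21l1 also overlapped the body of Nbea. Meis1, a homeobox gene that acts early in eye development, had a 135 kb loop from 1 end of the gene to its interior in all lists, with ratios of 5.37 in fiber, 5.15 in epithelium and 12.1 in ES cells. It also had a 60 kb loop inside the gene, with a ratio of 2.13, in the fiber list alone.

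Of 95 developmental homeobox and patterning genes at fiber loops, 6 (6.32%) were reached, near the share of all genes. The loops at Lhx1 (225 kb), Otx1 (70 kb), Pou3f2 (2200 kb) and at the neighbours Zic2 and Zic5 (225 kb), all transcription factors of the early nervous system, were in the fiber list alone, with ratios from 2.04 at Lhx1 to 2.81 at Pou3f2. So were 251 of all 481 loops without lens CTCF, and all of these loops but that at Otx1 had 25 kb anchors. The Lhx1 anchor also held an end of Aatf, and the Otx1 anchor an end of Ehbp1.

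Of 40 growth factor and signalling genes at fiber loops, 4 (10.0%) were reached by an end, and all 4 loops were in the fiber list alone. They were those of the Notch ligand Dll1 (175 kb, ratio 2.04), the receptor Notch2 (70 kb, 2.18), the hedgehog receptor Ptch1 (250 kb, 2.00), which was joined to Ercc6l2, and the inhibitory Smad gene Smad7 (100 kb, 1.98). Of all 481 loops without lens CTCF, 251 were in the fiber list alone. The loops at Dll1, Ptch1 and Smad7 had 25 kb anchors, and 126 of the 195 loops without lens CTCF of that width were in the fiber list alone. The bodies of 2 receptor genes without an end in reach, Bmpr1b of the BMP pathway and Fgfr3 of the FGF pathway, stood at loops of all 3 lists. The loop at Bmpr1b had ratios of 4.24 in fiber, 3.19 in epithelium and 4.54 in ES cells, and that at Fgfr3 had 2.63, 3.25 and 2.16.

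Among structural genes, 1 of 10 crystallin and lens fiber genes at fiber loops and 1 of 15 adhesion, cytoskeleton and channel genes were reached. Nrcam, whose promoter is shown above, stood at a 100 kb loop of both lens lists with ratios of 1.78 in fiber and 1.93 in epithelium, 1 of 5 fiber loops at the gene. Sptbn1, the spectrin of the membrane skeleton, stood at a 200 kb loop of the fiber list alone with a ratio of 2.13. The bodies of Ppp3ca, a calcineurin subunit, and Trpm3, a cation channel, were also reached, Trpm3 by a loop of 525 kb in both lens lists and by another of 2075 kb in the fiber list alone. No crystallin gene had an end or a body at an anchor of these loops. The rule leaves out anchors at lens CTCF peaks. The paper reports high CTCF over most crystallin genes, so this absence is not independent of the rule.

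Genes of the same family stood at both anchors more often than at other loops. With symbols that share the letters before the first digit taken as a family, a grouping chosen after the data were seen, this was so for 18 of 481 loops (3.74%, 2.38% to 5.84%), against 40 of 4580 (0.873%, 0.642% to 1.19%) with lens CTCF at both anchors and 1.07% of all fiber loops. Among loops with genes at both anchors it was 18 of 218 (8.26%, 5.29% to 12.7%) against 40 of 1851 (2.16%, 1.59% to 2.93%). Of the 18, 14 were also in the epithelium list and 6 in the ES cell list, and 5 were among the 33 loops with a ratio of at least 10. The epithelium list held 58.3% of all fiber loops and 43.9% of those without lens CTCF, and the ES cell list 38.5% and 17.9%. Several of the 18, such as those at Skint6 and Skint5, lay at the same locus and are not separate cases. Reads from near-identical copies can be placed in the wrong copy, so contacts between such copies are uncertain. For the 18 loops, likeness was measured only between promoters at both anchors, from 63% (Olfr659 and Olfr503) to 84% (Mptx2 and Mptx1). Whether misplaced reads have a part in these loops was not tested. The authors kept Hi-C reads with a mapping quality of at least 30 and ChIP-seq reads that mapped uniquely. How far this filter bears on the missing peaks or on the contacts was not tested.

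The loop between Mptx2 and Mptx1, 1060 kb long on chromosome 1, held 84 contacts in fiber, 99 in epithelium and 20 in ES cells, with ratios of 23.8, 24.0 and 14.1. Its first anchor also held the olfactory receptor gene Olfr418. The loop between Pate5 and Gm5916, 285 kb on chromosome 9, held 17 contacts at a ratio of 22.8 and was in both lens lists. At the Klra genes, 3 loops shared a site at Klra4 and Klra6, and those that joined Klra5 to Klra6 and Klra4 to Klra1 had ratios of 2.32 and 4.40 in fiber and 8.09 and 8.47 in epithelium. They held 110 and 25 contacts in fiber and 14 and 20 in epithelium. The paired loops may differ in anchor width, so these ratios do not compare the strength of the contact between the cell types. Skint6 and Skint5, genes of the Skint family, were joined by 4 loops of 675 to 730 kb with ratios from 7.25 to 39.8, and 3 of these loops were in all lists.

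Olfactory receptor, cytochrome P450 and carboxylesterase genes gave further pairs. Olfr322 and Olfr317 were joined in all 3 lists, with ratios of 3.86 in fiber, 6.56 in epithelium and 2.22 in ES cells. Olfr659 and Olfr503 lay 3875 kb apart and were joined in fiber alone by 15 contacts at a ratio of 11.5. Cyp4f16 and Cyp4f37 (ratio 5.93), Ces1e and Ces1h (1.80), the dynein genes Dnah7c and Dnah7a (11.1) and the zinc finger genes Zfp33b and Zfp951 (3.43) were joined in both lens lists and not in ES cells. The count of 18 rests on gene bodies and includes a loop on chromosome 19 where Cyp2c39 spans both anchors and overlaps Cyp2c38. The pairs Klra5 and Klra6, Ces1e and Ces1h, and Zfp33b and Zfp951 were named after their values were seen. Of the 182 clustered family genes with an end at any fiber loop, 22 (12.1%) were reached by loops without lens CTCF. Of these 22, Zfp366, Zfp608, Zfp62 and Zfp706 were matched to that list by the zinc finger prefix of their symbols and may not be genes of a cluster.

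**Figure D5:**
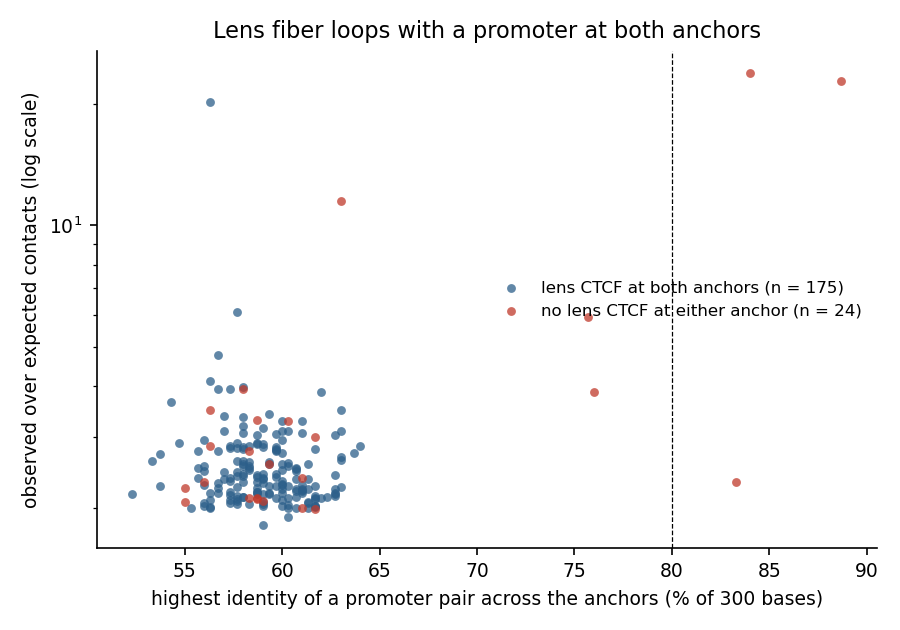
Observed over expected contacts (vertical axis, log scale) against the highest identity between promoters at opposite anchors (horizontal axis, % of 300 bases), for 24 loops without lens CTCF and 175 with lens CTCF at both anchors. The 3 points to the right of the dashed line at 80% are Pate5 with Gm5916, Mptx2 with Mptx1 and Klra5 with Klra6, and none of the 175 loops with CTCF at both anchors lies there.

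Families included, the ends of different genes were joined by 54 of the 481 loops without lens CTCF. The share with a gene end at both anchors, given above, was near that of loops with CTCF at both anchors. Of the 54, 32 were in the epithelium list and 14 in the ES cell list. Among all 481 loops these counts were 211 and 86, and among all fiber loops the shares were 58.3% and 38.5%. The median ratio of the 54 was 2.57. The highest ratio, 61.9, joined 1810024B03Rik and Zfp120 across 22950 kb with 13 contacts in fiber and 14 in epithelium. Zswim6 and Smim15 lay 150 kb apart and were joined in all 3 lists, with 32 contacts at a ratio of 3.93 in fiber. Ptger2, a prostaglandin E receptor, and Txndc16 were joined across 150 kb in all 3 lists at a ratio of 3.60. The cyclin genes Ccni and Ccng2 were joined across 60 kb in both lens lists (3.50), as was Arrb2, which encodes a beta-arrestin, with Tm4sf5 across 75 kb (3.46). Zfhx4 with Pex2 (3.52) and Wdr4 and Ndufv3 with U2af1 (3.50) were joined in the fiber list alone. These 7 pairs and 8 of the pairs above have the 15 highest ratios. Of 919 sites, 878 served 1 loop each and none more than 3, and sites of other fiber loops were not counted. The site nearest to Tacr3, a tachykinin receptor gene on chromosome 3, served 3 loops of 375 to 1525 kb, the Klra site served 3 of 125 to 320 kb, and sites at Pth2r, Unc80 and Fgd6 were among those with 2.

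In relation to TADs, loops without lens CTCF more often had neither anchor in a TAD and less often only 1. Both anchors lay in the same fiber TAD in 153 loops (31.8%, 27.8% to 36.1%), against 28.0% (26.7% to 29.3%) with lens CTCF at both anchors and 29.9% of all fiber loops, and the order was reversed at 5 kb anchors, with 20.8% against 34.7%. Neither anchor lay in a TAD in 275 loops (57.2%, 52.7% to 61.5%), against 47.0% (45.5% to 48.4%), and only 1 did in 10.6% (8.16% to 13.7%), against 23.2% (22.0% to 24.5%). A loop stood at the corner of a TAD, with its midpoints within 25 kb of the start and the end of that TAD, in 13.5% (10.7% to 16.9%) against 23.2% (22.0% to 24.4%). The corner shares were 19.4% against 45.0% at 5 kb anchors, 22.0% against 29.4% at 10 kb and 2.05% against 7.16% at 25 kb. Between the anchors, from 5 kb inside each of them, 55.3% of loops without lens CTCF held no fiber CTCF peak, against 27.3% with CTCF at both anchors. The number of fiber peaks per Mb between anchors was 6.74 without lens CTCF and 6.28 with CTCF at both anchors. When the 33 loops with a ratio of at least 10 were left out, the value without lens CTCF was 3.21, so the order depended on them. Loop size was not held fixed in these comparisons.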

How the data were processed

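Hi-C was available for lens epithelium, lens fiber cells and ES cells and CTCF ChIP-seq for both lens cell types. The authors aligned Hi-C reads with bwa-mem in the ENCODE pipeline, kept a mapping quality of at least 30, merged 2 replicates per cell type on mm10 and called loops with HiCCUPS (juicer_tools 2.13.06) and TADs with Arrowhead. Loops were deposited with an observed count, which is the raw number of contacts of the merged map, and with a q-value that the authors obtained from HiCCUPS. The authors called CTCF peaks with MACS2, and each deposited peak has a score, a fold enrichment ratio, and its p-value and q-value as −log10. Columns of other samples were not found (0).

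Loop classes, sizes, presence in other lists, genes, TADs, 95% intervals and figures were obtained in Python 3.11.15 using pandas 2.3.3, numpy 2.4.6, Biopython 1.88, scipy 1.17.1 and matplotlib 3.10.9, and the functions were tested on simulated data. No pseudocount was used. The rule for loops counted a peak that overlapped an anchor widened by 5 kb by at least 1 base. Gene ends came from the 21900 protein-coding genes of the RefSeq table for GRCm38.p6, the same assembly as mm10, and promoters covered 79.9% of them, with chromosome 18 not analysed for promoters. Promoters were aligned globally, and identity is the share of 300 bases. The CTCF core consensus was searched on both strands.

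Named genes are list genes at an anchor, genes nearest to the 10 loops with the highest ratio, the 10 longest and the 5 most used sites, and pairs of genes joined by their ends, up to 15 by ratio. In places, genes that share an anchor with a named gene or stand at the partner anchor are also given. A gene of the developmental list that meets this rule is not reported here. The loops and lists were chosen with earlier results of these data known. The gene families, promoter identity, the ratio limit of 10, TAD corners and peaks between anchors were added after the values were seen. Alternatives concerned anchor widening, the peaks and loops that enter, tolerance, gene ends, expected background and TAD list. Sequencing depth was not used here, and labels and methods of the study differ on the amount of chromatin and the number of ChIP-seq replicates.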

Additional observations from a re-analysis of the deposited data

How the results depend on the processing

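No paired analysis was possible because each loop list merges both replicates, and leaving out a replicate could not be done for the same reason. Of 85 alternative values, 55 lay within the interval of the reported value and 30 outside it. Of 72 differences between loops without lens CTCF and loops with lens CTCF at both anchors, 67 kept their direction and 5 reversed. The lower median size (14 of 14), the lower share in the epithelium list (15 of 15), the lower share in the ES cell list (15 of 15) and the lower share with a gene end (9 of 9) kept their direction.

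The share of fiber loops without lens CTCF was 14.6% (1097 loops) with no widening of the anchors, 4.48% (336) with 10 kb, 2.56% (192) with 25 kb and 7.42% (557) with fiber peaks alone. With no widening, 53.2% of the loops were in the epithelium list and 29.3% in the ES cell list. Loops with 5 kb, 10 kb and 25 kb anchors had median sizes of 105, 130 and 325 kb. For 5 kb and 25 kb anchors, 68.1% and 32.8% were in the epithelium list, 37.5% and 7.69% in the ES cell list, and 31.9% and 57.9% had a gene end, with median ratios of 4.78 and 2.31. When midpoints could lie 25 kb apart, presence was 59.3% in epithelium and 28.5% in ES cells, and when anchors had to overlap it was 33.7% and 11.6%. A gene end was present in 43.8% with 25 kb widening, in 58.2% with 5 kb allowed around the end and in 76.1% when any gene body counted. The median ratio was 3.08 with 25 kb widening, 2.44 with the horizontal and 2.46 with the vertical background. Both anchors lay in 1 TAD in 24.5% with 25 kb widening, in 20.8% with 5 kb anchors and in 27.7% with the epithelium TAD list.

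The difference in median ratio, -0.16 as reported, reversed to 0.21 with 25 kb widening, 0.33 with 5 kb anchors and 0.07 with the lower left background. The difference in the share in 1 TAD, 3.8 percentage points as reported, reversed to -4.89 with 25 kb widening and -13.9 with 5 kb anchors. The cause was not tested. Leaving out loops with a ratio of at least 10, and loops with genes of 1 family at both anchors, were alternatives chosen after seeing the data. The contacts behind single loops, as few as 13, limit their ratios.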
